A study of Mus musculus with 2 samples.

Results

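The barcodes described here are those that a limit of 5% on mitochondrial UMIs removes and a limit of 10% would have kept. They were chosen by measured values: a barcode with 200 to 9000 detected genes and over 5% to 10% of its UMIs (unique molecular identifiers, counted RNA molecules) from the 13 mitochondrially encoded genes was called lost, and a barcode in the same gene limits with at most 5% was called kept. Of 24084 barcodes, 8113 were lost, 4313 in library 1 and 3800 in library 2. A further 10591 were kept, 5694 and 4897 in the 2 libraries, 5243 lay over 10% and 137 lay outside the gene limits. The mitochondrial share therefore differed between lost and kept cells by construction and is not a result. The questions asked are which cell classes the lost cells belonged to and which nuclear genes differed between lost and kept cells, overall and within the classes positive for Omp, Krt5, C1q, Pecam1 or Cdh5, and S100a8 or S100a9.

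The vomeronasal organ (VNO) is a paired chemosensory tube at the base of the nasal septum, whose sensory epithelium holds Omp-positive sensory neurons of an apical (Gnai2) and a basal (Gnao1) kind, sustentacular support cells and basal stem cells, beside glands, vessels, immune cells and glia. Mitochondrial transcripts are polyadenylated and are captured with nuclear mRNA, so a cell that is rich in mitochondria and a cell that has leaked cytoplasmic RNA both show a raised mitochondrial share. A single limit over a mixed tissue is therefore applied to cell types whose usual mitochondrial shares differ.

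Whole VNOs of C57BL/6J wild-type male mice at postnatal day 60 had been dissociated, and the frozen cell suspension had been profiled by 10x Genomics single-cell RNA sequencing in 2 libraries. A total of 5 mice had been pooled, and their division between the libraries was not stated. All animals were untreated, so lost and kept cells come from the same animals and the same libraries, and no condition was compared.

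The libraries held 12814 and 11270 barcodes with 108005626 and 95442231 UMIs, of which 6.47% and 6.502% were mitochondrial. Within the gene limits the median share was 5.44% and 5.54%, so a 5% limit fell below the median of both. A total of 33 barcode sequences occurred in both libraries, 18 of them in cells of at most 10% in both. Cells are not replicates: tests compared summed counts of lost and kept cells over the 2 libraries, and p-values measure only the spread between these 2 libraries, which may be technical. In such sums, fewer cells expressing a gene and less RNA per cell cannot be told apart.

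Cells with transcripts of tuft-like and sustentacular cells were lost most often, and cells with dendritic-cell markers least often. Of the 18704 cells of at most 10%, 43.4% were lost (43.1% and 43.7% in libraries 1 and 2, mean 43.4% ± 0.42 SD, n = 2). Classes were set by UMI minima on marker genes, the 5 named above and 11 added ones, and a cell could belong to more than 1. Of the cells with at least 2 UMIs of Trpm5 or Pou2f3, a taste-like cation channel and the transcription factor of tuft cells, 76 of 83 were lost, which is 91.6% (exact binomial 95% interval 83.4% to 96.5%). Of the cells with at least 5 UMIs of the sustentacular genes Cyp2a5 and Fezf2, 2323 of 3094 were lost, 74.7% and 75.5% in the 2 libraries. These cells made up 28.6% of all lost cells but 7.28% of the kept cells. These intervals cover counting error only, and with 2 libraries no test of a class share over samples can pass, so none was made.

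Vessel-wall cells were also lost above the overall share. Of the cells with at least 10 UMIs of the contractile genes Acta2 and Tagln, 56.0% were lost (53.7% and 58.9%), and 493 more lay over 10%, more than the 368 that were kept.

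The following classes lay below the overall share in both libraries. Fibroblast-marker cells (at least 10 UMIs of Dcn or Col1a2) lost 37.5%, dividing cells (at least 3 of Mki67 or Top2a) 30.2%, T-cell-marker cells (at least 2 of Cd3d, Cd3e or Cd3g) 30.0%, immature-neuron-marker cells (at least 5 of Gap43) 27.8% and neural precursors (at least 2 of Neurod1 or Neurog1) 25.9%. The lost Gap43 cells had a median of 36444 nuclear UMIs against 9592 in kept ones, and whether they are single immature neurons was not tested. Krt5 cells (at least 5 UMIs of this basal-cell keratin) lost 936 of 2621, which is 35.7% (35.2% and 36.3%). C1q cells (at least 10 UMIs of the complement genes C1qa, C1qb and C1qc, made by macrophages) lost 633 of 2327, 27.2% (28.1% and 26.2%). Pecam1 and Cdh5 cells (at least 2 UMIs of these endothelial junction genes) lost 183 of 884, 20.7% (20.9% and 20.5%). S100a8 and S100a9 cells (at least 1% of UMIs from these neutrophil calcium-binding genes) lost 84 of 653, 12.9% (12.9% and 12.8%). The lowest share was that of cells with at least 2 UMIs of the dendritic-cell lectin Cd209a, where 12 of 259 were lost (2.90% and 6.61%).

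The order of neighbouring classes was not always clear of counting error. The intervals of the Acta2 and Omp classes overlapped, as did those of the Mki67, Cd3, Gap43, C1q and Neurod1 classes. The order of the C1q, endothelial-marker and neutrophil-marker cells moved with depth: 18.5%, 20.4% and 11.6% were lost with at least 500 genes per cell, and 14.9%, 20.5% and 20% with classes set on 2000 thinned nuclear UMIs, where 115 neutrophil-marker cells were left. Cells that met none of the 16 definitions were lost at 48.5% (2867 of 5910) and made up 35.3% of all lost cells. Within the C1q cells, those with a UMI of Mrc1, the mannose receptor of resident macrophages, lost 20.8% and those without lost 31.4%. A single UMI sets this split, so it depends on depth. Median nuclear UMIs were 2688.5 in lost and 5281 in kept cells with Mrc1, and 901 and 4416 in those without. The part of depth in this gap was not tested.

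**Figure D1:**
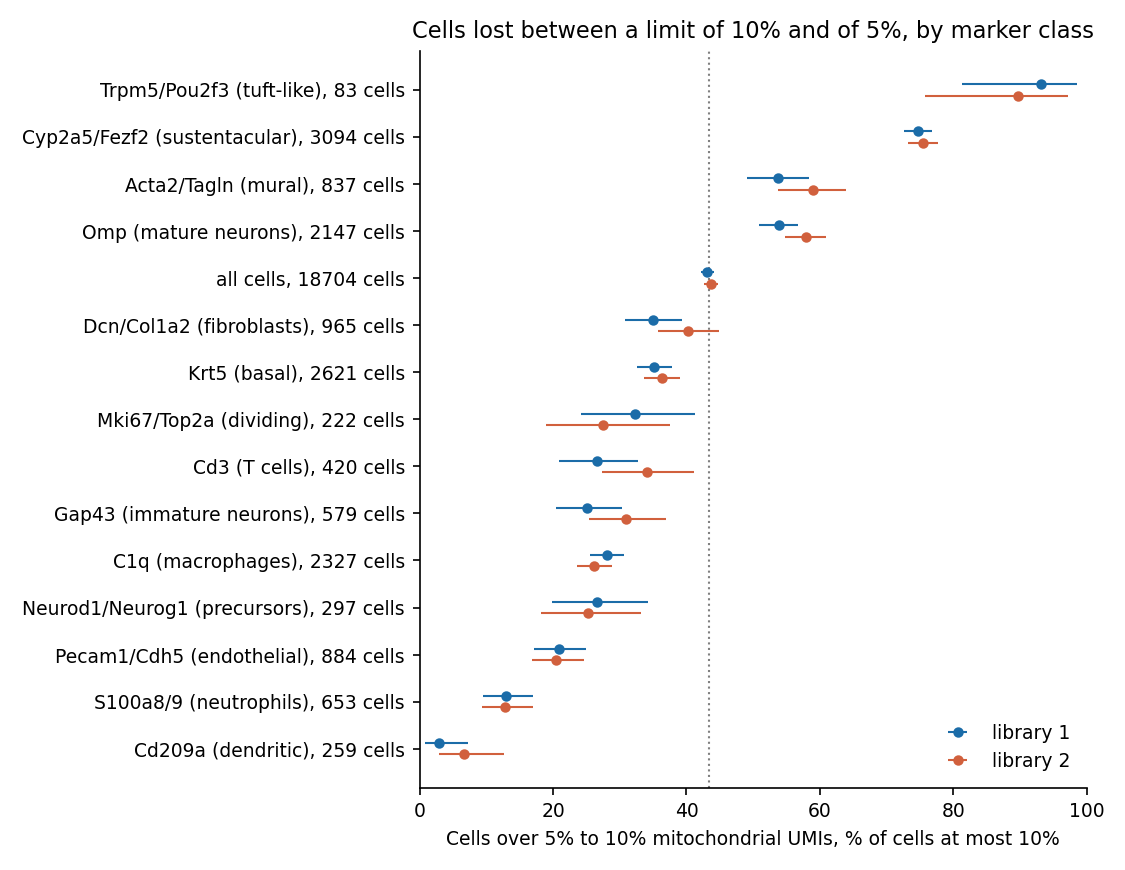
Share of cells of at most 10% mitochondrial UMIs that lay over 5%, in percent, for each marker class described and each library (points, with exact binomial 95% intervals as bars, counting error only), with the share over both libraries as a dotted line. The Trpm5 class sits at 93.2% and 89.7% and the Cd209a class at 2.90% and 6.61%.

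The class labels were checked against marker genes that did not define them. In 13 of the 16 classes every other marker of the named type was at least 4-fold higher inside the class than outside. The exceptions were the Omp class, where Tubb3 and Gnao1 were 1.38-fold and 2.10-fold higher and the other 5 of 7 markers passed, the Gap43 class (3 of 4), and the Cyp2a5 class, where Muc2 was 6.04-fold higher and Cyp1a2 was near 0.

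Depth differed between lost and kept cells, in different ways by class. The median number of nuclear UMIs per cell was 6024 in lost and 6425 in kept cells, against 1621 over 10%. By depth, 59.3% of cells under 1000 nuclear UMIs and 60.0% of those over 16000 were lost, against 36.1% to 40.3% between those limits. Nuclear UMIs are in the denominator of the share that defined the bands. Lost Omp cells were deeper than kept ones (28063 against 15038 median nuclear UMIs), as were lost Gap43 cells (36444 against 9592). Lost C1q cells were shallow, at 1098 against 4893.5, while Krt5 cells (9132.5 against 9313) and S100a8 and S100a9 cells (1552 against 1546) were alike in depth.

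Cells just either side of the limit differed little in depth. Those at 4.5% to 5% (848 and 794 cells) had medians of 7080.5 and 7554 nuclear UMIs in the 2 libraries, and those over 5% to 5.5% (757 and 658 cells) had 6653 and 7054.5. Of the mitochondrial UMIs, mt-Atp6, an ATP synthase subunit, took 24.95% and 25.7% in kept cells and 25.1% and 26.1% in lost cells. The other mitochondrial genes are not described here.

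The Omp cells that were lost were for the most part cells that also carried sustentacular transcripts. Of 2147 Omp cells (at least 5 UMIs of olfactory marker protein), 1197 were lost, which is 55.8% (53.8% and 57.9%). Of the lost Omp cells, 69.7% also met the Cyp2a5 and Fezf2 definition, and these held 87.0% of the class's nuclear UMIs, against 27.6% of kept Omp cells with 47.1% of the UMIs. Omp cells without that second signature lost 363 of 1051, 34.5% (31.4% and 38.1%). Cells that met both definitions lost 834 of 1096, 76.1%, close to the 74.5% of Cyp2a5 and Fezf2 cells without Omp.

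Cells of both definitions held both transcripts at high levels and were the deepest cells. Their median was 38257 nuclear UMIs in lost and 29285 in kept cells, against 13480 and 13608 in Omp cells without Cyp2a5 or Fezf2. In UMIs per 1000000 nuclear UMIs, Omp stood at 677 and 666 in lost cells of both definitions (libraries 1 and 2), at 1024 and 980 in lost Omp cells without Cyp2a5 and Fezf2, and at 18.7 and 16.3 in lost Cyp2a5 and Fezf2 cells without Omp. Cyp2a5, a cytochrome P450, stood at 751 and 757, 24.4 and 23.9, and 1742 and 1645 in the same order. Scrublet, which scores resemblance to simulated doublets, called 0.959% of lost and 2.67% of kept cells of both definitions, 3.86% and 3.49% of Omp cells without Cyp2a5 and Fezf2, and 2.89% and 4.91% of the reverse. Whether these barcodes are single cells was not tested further.

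**Figure D2:**
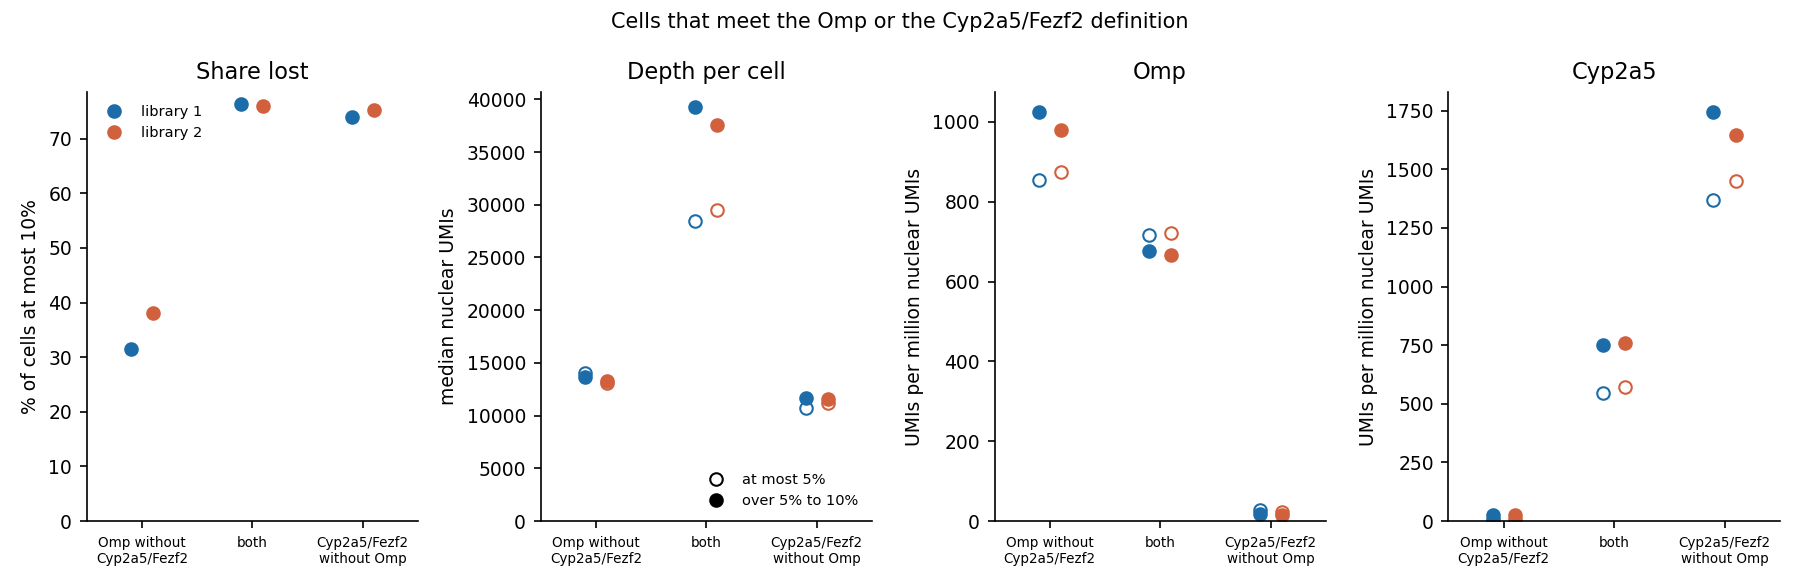
Share lost (percent), median nuclear UMIs per cell, and the levels of Omp and Cyp2a5 (UMIs per 1000000 nuclear UMIs) in Omp cells without Cyp2a5 and Fezf2, cells of both definitions, and Cyp2a5 and Fezf2 cells without Omp, by library, with open points for kept and filled points for lost cells. Cells of both definitions are the deepest (38257 against 29285 median nuclear UMIs in lost and kept cells) and hold both transcripts.

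Among the Omp cells, those with more Gnai2 than Gnao1, the G-protein subunits of apical and basal neurons, were lost at 57.8% (55.5% and 60.4%). Those with more Gnao1 than Gnai2 were lost at 27.9% (29.2% and 26.7%, 41 of 147). The 2 ranges did not overlap between libraries. Most of the 834 lost cells of both definitions were of the first kind, as only 41 lost Omp cells were of the second. Omp cells without Cyp2a5 and Fezf2 were lost at 34.5% (31.4% and 38.1%). Shares by G protein were not computed without the cells of both definitions, and the part of those cells in the gap was not tested.

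Nuclear genes were then compared between lost and kept sums. Levels below are given as CPM, UMIs per 1000000 nuclear UMIs after TMM scaling of the 4 sums, first kept in libraries 1 and 2, then lost in libraries 1 and 2, and a fold change is lost over kept on the log2 scale. Summed levels of lists and markers, and levels in cells without any Cyp2a5 or Fezf2 UMI, are CPM without TMM scaling. Called genes passed an adjusted p of 0.05 (edgeR's quasi-likelihood test, Benjamini-Hochberg over all genes tested). Over all cells 6413 of 19572 genes were called, which is 32.8% (2976 higher and 3437 lower in lost cells). Within classes the counts were 3409 of 16582 in Omp cells (20.6%), 445 of 15229 in Krt5 cells (2.92%), 3430 of 14229 in C1q cells (24.1%), 2496 of 13308 in Pecam1 and Cdh5 cells (18.8%) and 52 of 7068 in S100a8 and S100a9 cells (0.736%). The lost and kept sums of a library share that library, and with the library as a replicate block the counts were 10109, 5613, 1826, 4450, 3445 and 245 in the same order.

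Most of these calls were not made when cells of mixed identity were left out. The dividing-cell definition was not counted as another class, nor, for Omp cells, was the Gap43 or the Neurod1 and Neurog1 definition. This holds wherever cells of another class are left out. Of the lost C1q cells, 16.1% met another class definition and held 62.1% of the class's nuclear UMIs, against 8.97% of kept C1q cells with 20.4%. Without cells that met another definition, 129 of 13413 genes were called in Omp cells (0.962%), 49 of 13926 in Krt5 cells (0.352%), 432 of 12234 in C1q cells (3.53%), 139 of 11723 in Pecam1 and Cdh5 cells (1.19%) and 90 of 6538 in S100a8 and S100a9 cells (1.38%). Leaving out also every cell with any UMI of Cyp2a5 or Fezf2 gave 13 of 12820 (0.101%), 40 of 13415 (0.298%), 335 of 11903 (2.81%), 55 of 11364 (0.484%) and 103 of 6329 (1.63%). These are referred to as single-class cells and as single-class cells without Cyp2a5 and Fezf2, and both sets were chosen after seeing the data. They also hold fewer cells and UMIs, whose part in the lower counts was not tested.

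**Figure D3:**
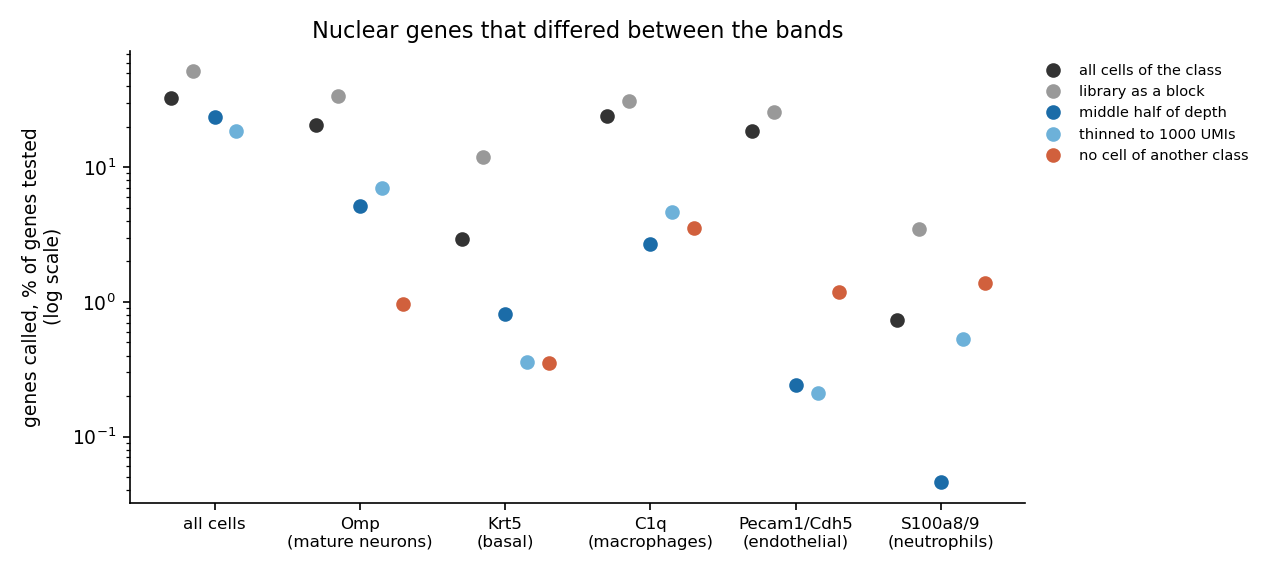
Genes called between lost and kept cells as a percent of the genes tested (log scale) for all cells and the 5 classes, with all cells of the class, with the library as a block, with cells between the lower and upper quartile of nuclear UMIs, with cells thinned to 1000 nuclear UMIs, and without cells of another class. In the Omp class the share goes from 20.6% with all cells to 0.962% without cells of another class.

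Over all cells, the genes that differed most followed the classes that were lost. Genes of tuft-like cells were higher in lost cells: Gnat3, the taste G protein gustducin, had 4.27 and 2.45 CPM in kept and 50.1 and 31.9 in lost cells (log2 fold change 3.60 ± 0.31 SE, adjusted p = 0.00042 by edgeR's quasi-likelihood test). Smbd1 (chr16:32804760-32810477 on mm10) had a single UMI in the kept cells of each library and 151 and 138 in lost cells, the largest rise of a gene that met the naming rule (6.88 ± 0.33). The bitter receptor Tas2r105 (4.46), Rgs21 (4.12) and Gnb3 (3.77), a regulator and a subunit of G proteins in taste cells, rose with it. Cyp2a5 went from 198 and 195 to 770 and 677 CPM and Fezf2 from 54.6 and 48.6 to 212 and 184. Myh11, smooth-muscle myosin, went from 14.7 and 8.27 to 101 and 60.6 (2.81 ± 0.34).

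Plasma-cell, gland, macrophage and dendritic genes were lower in lost cells. The antibody gene Igha had 146 and 71.8 CPM in kept and 2.41 and 0.418 in lost cells (-6.25), and Jchain, which joins antibody units, 92.4 and 34.5 against 1.76 and 0.255 (-5.95). The odorant-binding proteins of the nasal glands fell, Obp2a from 20421 and 13478 to 1214 and 923 (-3.99 ± 0.24) and Lcn3 from 14260 and 12581 to 1077 and 647 (-3.96 ± 0.25). Wfdc18, a secreted protease-inhibitor-like gene, went from 36947 and 36945 to 6505 and 4559 CPM (-2.74), but stood at 0.19 among cells between the lower and upper quartile of depth. Ccl4, a macrophage chemokine, fell from 603 and 670 to 66.1 and 43.9 (-3.53), Il1b from 759 and 696 to 89.5 and 73.4 (-3.16), Cd209a from 24.5 and 20.8 to 1.15 and 0.974 (-4.41) and the endothelial sialomucin Emcn from 66.2 and 70.4 to 10.3 and 9.37 (-2.79).

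Marker lists gave the same split over all cells, beside a median log2 change of 0.01 over all genes tested and 15.2% and 17.6% of them called higher and lower. All 3 sustentacular markers (median 1.88) and all 4 tuft-like markers (3.01) were higher in lost cells. All markers tested of neural precursors, dividing cells, basal cells, gland cells, macrophages, monocytes, dendritic cells, neutrophils, T cells, endothelial cells and fibroblasts were lower. Mural markers split 3 higher and 2 lower, immature-neuron markers were lower in 3 of 5, those of mature neurons split 1 higher and 2 lower of 8, all 3 of basal neurons were lower, none of 3 of apical neurons was called, and erythrocyte markers had 1 lower. These lists overlap the class definitions and restate the shares given above.

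Nuclear genes of the respiratory chain were more often higher than lower in lost cells, with a small median change. Over all cells, 17 of 82 nuclear oxidative phosphorylation genes were higher in lost cells and 2 lower (median 0.13). Of all genes, 15.2% were called higher and 17.6% lower. The summed level of these 82 genes was 33786 and 32850 CPM in lost against 26115 and 25880 in kept cells. Mitochondrial ribosomal proteins (2 higher and 2 lower of 77), import and dynamics genes (5 and 1 of 29) and biogenesis regulators (1 higher of 10) were called below the 32.8% of all genes called in either direction. The import and dynamics genes called higher lay slightly above the 15.2% of all genes called higher. Cytosolic ribosomal proteins were lower in 48 of 83 and higher in none (median -0.33), with Rplp0 at 4349 and 3922 in kept and 2893 and 2615 in lost cells (-0.59 ± 0.09). Of 19 glycolysis genes 13 were higher and 1 lower (0.70), among them Pgk1, phosphoglycerate kinase, at 196 and 186 against 389 and 373 (0.99) and Gapdh at 1835 and 1469 against 3325 and 2584 (0.84).

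Stress lists did not move in a single direction over all cells. Immediate early genes split 4 higher and 5 lower of 17, heat shock genes 3 and 3 of 13, and integrated stress response genes 2 and 3 of 15. Apoptosis and p53 genes were lower in 8 of 18 and higher in 1, oxidative stress defence genes higher in 9 of 21 and lower in 2, nuclear long noncoding RNAs 3 and 2 of 10, and ion pumps and calcium genes 9 and 2 of 18. The lists of cell identity followed the lost classes: macrophage states 19 lower and 1 higher of 24, endothelial subtypes 18 and 1 of 22, neutrophil maturation 19 and 1 of 23, gland products 7 and 3 of 13, neuronal maturation 9 and 4 of 21, vomeronasal signalling 3 and 4 of 16, and basal and epithelial genes 8 and 7 of 20.

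In single-class cells the lists are read against 0.352% (Krt5) to 3.53% (C1q) of all genes called. Oxidative phosphorylation, mitochondrial ribosome and biogenesis genes had 0 called members in each of the 5 classes, and import and dynamics genes had 1 lower, in Pecam1 and Cdh5 cells. With all cells of the class, oxidative phosphorylation genes had been called 4 higher and 7 lower of 81 in Omp cells, 12 and 1 of 81 in C1q cells, 6 and 2 of 79 in Pecam1 and Cdh5 cells, and none in Krt5 cells and S100a8 and S100a9 cells. Their summed level in single-class C1q cells was 16535 and 16258 CPM in kept and 20835 and 18902 in lost cells, and in single-class Omp cells 38224 and 38691 against 37977 and 38900. Cytosolic ribosomal proteins, lower in 53 of 80 in C1q cells and 54 of 80 in Pecam1 and Cdh5 cells, had 0 and 1 called member in the single-class cells.

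**Figure D4:**
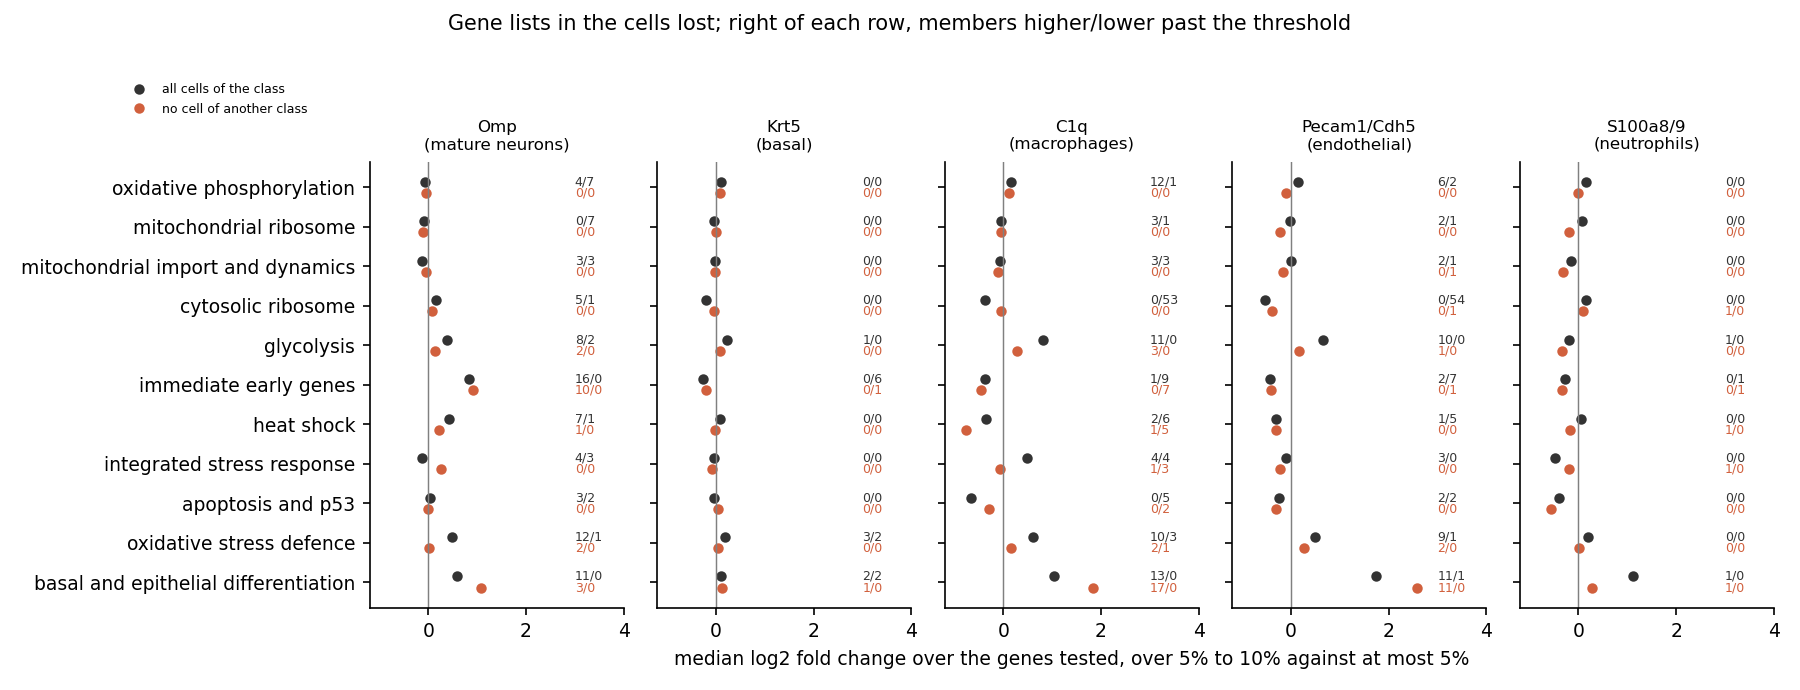
Median log2 fold change (lost over kept) of the tested genes of 11 lists in the 5 classes, with all cells of the class in black and without cells of another class in orange, and the numbers of members called higher and lower at the right of each row. Immediate early genes lie at 0.84 in Omp cells and below 0 in the other 4 classes.

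Relative to all nuclear UMIs, lost Omp cells had higher immediate early, stress and epithelial transcripts and lower transcripts of neuronal maturation. Of all genes, 12.7% and 7.85% were called higher and lower. Of 17 immediate early genes, induced within minutes by stimulation or by dissociation, 16 were higher and none lower (median 0.84, against 0.00 over all genes). Klf4, a zinc-finger regulator, had 221 and 269 CPM in kept and 692 and 711 in lost cells (1.52 ± 0.12, adjusted p = 0.0024 by edgeR's quasi-likelihood test). Egr1 had 280 and 339 against 726 and 772 (1.28), Nr4a1 182 and 237 against 445 and 466 (1.12), and Fos 941 and 902 against 1636 and 1481 (0.76). Lost cells were above kept cells in both libraries for each of these genes. Hk2 and Ldha, hexokinase and lactate dehydrogenase, were 1.34 and 1.02 higher, among 8 of 18 glycolysis genes higher and 2 lower. The metallothioneins Mt1 and Mt2, which bind metal ions, were 1.15 and 1.17 higher, and the chaperones Dnajb1 and Hspb1 0.97 and 0.66 higher, among 7 of 13 heat shock genes higher and 1 lower. The maternally expressed noncoding RNA Meg3 had 520 and 699 against 1616 and 1784 (1.48 ± 0.15), and its neighbour Rian was 1.40 higher. Over both libraries, without TMM scaling, Fos stood at 493 in kept and 701 in lost Omp cells without Cyp2a5 and Fezf2. It stood at 1405 and 1685 in cells of both definitions, and at 3192 and 3279 in Cyp2a5 and Fezf2 cells without Omp. Meg3 stood at 34.0 and 241, 1249 and 1913, and 1469 and 2353 in the same order. The part of the cells of both definitions in these rises was not tested.

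Neuronal genes took a smaller part of the nuclear UMIs in the lost Omp cells. The median lost cell of both definitions held 21 Omp, 63.5 Gnai2, 26 Gng8 and 16 Stmn3 UMIs. The median kept Omp cell without Cyp2a5 and Fezf2 held 11, 46, 19 and 16. The levels below are shares of UMIs, not counts per cell. Tubb3, neuronal tubulin, had 380 and 315 CPM in kept and 166 and 150 in lost cells (-1.14 ± 0.12), Stmn1 589 and 501 against 308 and 283 (-0.88), and the axon guidance receptor Robo2 15.1 and 21.4 against 9.40 and 7.97 (-1.07). In all, 10 of 21 neuronal maturation genes were lower and none higher (-0.38), and 5 of 16 vomeronasal signalling genes were lower and 3 higher, with Gnao1 at 61.2 and 74.9 against 39.0 and 30.5 (-0.97). Tfap2e, the transcription factor of basal neurons, had 20.5 and 19.7 against 6.00 and 7.81 (-1.54), and Calr4, a chaperone, 587 and 534 against 241 and 249 (-1.19). Epithelial genes were higher in 11 of 20 and lower in none, with Sox2 at 92.8 and 98.1 against 248 and 224 (1.31). The summed sustentacular markers stood at 339 and 390 CPM in kept and 896 and 873 in lost Omp cells, and those of mature neurons at 6138 and 5638 against 4442 and 4397.

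The other lists in the whole Omp class were mixed. Called higher and lower were 12 and 1 of 21 oxidative stress genes, 4 and 3 of 15 integrated stress response genes, 3 and 2 of 18 apoptosis genes, 3 and 0 of 9 noncoding RNAs, 1 and 4 of 17 ion pumps, 3 and 3 of 29 import genes, 5 and 1 of 81 cytosolic ribosomal proteins, 0 and 7 of 77 mitochondrial ribosomal proteins, 1 and 0 of 10 biogenesis genes, 6 and 2 of 21 macrophage genes, 2 and 4 of 17 endothelial genes, 3 and 1 of 16 neutrophil genes and 2 and 6 of 9 gland products. Gland products had the largest falls: Lcn3 went from 1118 and 2827 to 128 and 108 CPM (-4.06) and Wfdc18 from 2461 and 7064 to 569 and 449 (-3.23), and they stood at 0.42 and 1.15 among cells between the lower and upper quartile of depth. In single-class cells, 11709 of the 13817 Wfdc18 UMIs in kept cells of library 1 lay in 1 cell. Cytl1, a small secreted protein, had 23.2 CPM in kept cells of library 1 and none in library 2.

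In single-class Omp cells 0.753% and 0.209% of genes were called higher and lower, and 10 of 17 immediate early genes were higher (median 0.91). Klf4 had 22.0 and 28.5 CPM in kept and 92.2 and 107 in lost cells (1.99), Nr4a1 19.0 and 26.2 against 87.1 and 94.0 (2.01) and Egr1 63.7 and 62.8 against 152 and 171 (1.35). Meg3 (chr12:109541001-109571726) had 37.4 and 35.3 against 205 and 296 (2.79 ± 0.19, adjusted p = 0.0082 by edgeR's quasi-likelihood test), in 36 and 30 kept cells and 36 and 47 lost cells with a UMI. Sox2 (2.31), Ccn1 (2.27), Dusp5 (2.25), Mt2 (1.22) and Hspb1 (0.72) were also higher. Tfap2e (-2.07) and Rab3c, a vesicle protein (-1.16), were lower. Called in the other lists were 2 glycolysis genes higher, 1 heat shock gene higher, 2 oxidative stress genes higher, 2 noncoding RNAs higher, 3 epithelial genes higher, 3 macrophage genes higher, 1 gland gene higher, 1 neuronal gene lower and 1 neutrophil gene lower, and none in the rest. The summed sustentacular markers in these cells were 18.1 and 12.7 CPM in kept and 47.6 and 43.0 in lost cells. Their part in the result was not tested.

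Of the single-class Omp cells without Cyp2a5 and Fezf2, 321 and 247 were kept and 119 and 129 lost, and 3 genes were higher and 10 lower (0.0234% and 0.078%), with 724 at an unadjusted p below 0.05. None of the 17 immediate early genes was called (median 0.74). Klf4 had 9.42 and 17.7 CPM in kept and 39.3 and 30.9 in lost cells (1.39, adjusted p = 0.57 by edgeR's quasi-likelihood test), Fos 283 and 352 against 470 and 393 (0.45, 0.80), and Meg3 9.65 and 16.5 against 30.8 and 80.0 (2.11, 0.52). Tfap2e had 25.6 and 29.0 against 7.01 and 6.06 (-2.05, 0.073). S100a5, a calcium-binding protein of olfactory neurons, was still called, at 15.9 and 8.54 against 108 and 121 (3.19, adjusted p = 0.028), but in single-class cells 105 of its 162 UMIs in library 1 and 172 of 200 in library 2 lay in 1 lost cell each. H2-M10.5, a nonclassical MHC gene of basal neurons, was lower in single-class cells (62.5 and 70.9 against 10.1 and 3.31, -3.35) and rested on 16 and 7 kept and 4 and 3 lost cells. Without Cyp2a5 and Fezf2 it was not called (-2.96, adjusted p = 0.51 by edgeR's quasi-likelihood test).

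Lost and kept Krt5 cells differed in few genes, with 1.64% and 1.29% of genes called higher and lower. Of 17 immediate early genes 6 were lower in lost cells and none higher (median -0.26): Klf2, a flow- and quiescence-associated factor, had 706 and 632 CPM in kept and 389 and 373 in lost cells (-0.81 ± 0.10, adjusted p = 0.0049 by edgeR's quasi-likelihood test), Junb 6609 and 5786 against 4148 and 4189 (-0.57), and Fos 8729 and 7384 against 5825 and 5613 (-0.49). Lost cells lay below kept cells in both libraries for the 3 genes. The cytokine Il33 (chr19:29925114-29960718), an alarmin of basal epithelium, had 169 and 149 against 58.4 and 64.2 (-1.38 ± 0.12). The basal keratin Krt14 fell from 1754 and 1672 to 1001 and 872 (-0.87), while Krt19, a keratin of more differentiated epithelium, went from 742 and 717 to 1107 and 1096 (0.59). The antimicrobial protein Pglyrp1 (50.5 and 32.8 against 252 and 258, 2.61), the antibody transporter Pigr (9.13 and 9.36 against 41.9 and 57.7, 2.43) and surfactant protein Sftpd (70.3 and 58.3 against 134 and 128, 1.03) were higher.

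Cells of other classes were more common among lost than kept Krt5 cells. The Cyp2a5 and Fezf2 definition was met by 15.0% of lost and 2.91% of kept Krt5 cells, with 28.9% and 6.13% of their UMIs, and the summed sustentacular markers were 553 and 550 CPM against 87.1 and 83.7. Cyp2a5 itself rose from 65.8 and 63.4 to 491 and 483 (2.91), and Myh11 (3.68) and Meg3 (2.31) were higher. Fibroblast genes fell, Mfap4 by 2.37 and Sfrp2 by 1.96 on the log2 scale, and both stood at 0.62 in single-class cells.

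In single-class Krt5 cells, 0.187% and 0.165% of genes were called higher and lower. Il33 had 179 and 161 CPM in kept and 80.1 and 73.7 in lost cells (-1.15 ± 0.12, adjusted p = 0.0063), with UMIs in 333 and 305 kept and 93 and 93 lost cells, and Klf2 was the 1 immediate early gene called (-0.64). Ccn2, a matricellular growth regulator, had 127 and 144 against 51.5 and 76.0 (-1.09). Fxyd4, a sodium pump regulator, rose from 76.2 and 68.6 to 157 and 219 (1.38, adjusted p = 0.0063), and Pigr (2.41), Pglyrp1 (1.88), Sult1d1 (1.40), Sftpd (0.94) and Krt19 (0.52) were higher. Of the Pglyrp1 UMIs of lost cells in library 2, 227 of 459 lay in 1 cell, and 5 cells of each library held 62.1% and 67.6% of the Pigr UMIs of lost cells. Without any Cyp2a5 or Fezf2 UMI 0.142% and 0.157% of genes were called higher and lower. Among these, Il33 (-1.101), Klf2 (-0.69), Ccn2 (-0.99), Fxyd4 (1.53), Pigr (1.84) and Krt19 (0.56) were still called, and Meg3, called at 1.43 in single-class cells, stood at 0.17 with an adjusted p of 0.91 by edgeR's quasi-likelihood test. Of the basal-cell markers that do not define the class, none was called in single-class cells: Krt14 had 1845 and 1735 CPM in kept and 1346 and 1099 in lost cells (-0.55, adjusted p = 0.056 by edgeR's quasi-likelihood test), Krt15 1079 and 1033 against 1282 and 1342 (0.31, 0.23), and the basal-cell factor Trp63 118 and 137 against 104 and 124 (-0.16, 0.76).

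The other lists in Krt5 cells are read against 2.92% of all genes called. None was called in the oxidative phosphorylation, cytosolic and mitochondrial ribosome, import, biogenesis, heat shock, integrated stress response, apoptosis, ion pump or vomeronasal signalling lists. Called higher and lower in the whole class were 1 and 0 of 18 glycolysis genes, 3 and 2 of 21 oxidative stress genes, 2 and 0 of 9 noncoding RNAs, 1 and 0 of 21 neuronal genes, 2 and 2 of 20 epithelial genes, 1 and 2 of 23 macrophage genes, 0 and 3 of 18 endothelial genes, 2 and 3 neutrophil genes and 2 and 1 of 9 gland products.

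Lost C1q cells had lower inflammatory, immediate early and heat shock transcripts and higher epithelial transcripts than kept ones, beside 12.2% and 11.9% of genes called higher and lower. Nlrp3 (chr11:59541568-59566956), the inflammasome sensor, had 112 and 109 CPM in kept and 18.2 and 10.2 in lost cells (-2.91 ± 0.23, adjusted p = 3.1e-05 by edgeR's quasi-likelihood test). The cytokine Il1b had 3172 and 2829 against 660 and 606 (-2.24 ± 0.11), the chemokines Ccl3 and Ccl4 2013 and 1938 against 377 and 448 (-2.26) and 4673 and 4717 against 842 and 1056 (-2.31), and the cytokine Osm 85.5 and 112 against 10.0 and 21.2 (-2.73). In each of these genes all lost values lay below all kept values. Il1a (-2.63), the costimulatory ligand Tnfsf9 (-2.48) and the urokinase receptor Plaur (-2.32) were also among the largest falls. Lyz1, a lysozyme gene, had no UMI in lost cells and 8.87 and 46.0 CPM in kept cells, at least 20.6-fold lower by a floor of 3 counts.

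The lists in the whole C1q class followed these genes. Macrophage state genes were lower in 19 of 24 and higher in 1 (median -1.26, against -0.02 over all genes), immediate early genes lower in 9 of 17 and higher in 1, heat shock genes lower in 6 of 13 and higher in 2, neutrophil genes lower in 11 of 17 (-1.52) and apoptosis genes lower in 5 of 18. Epithelial genes were higher in 13 of 20 (1.04), neuronal genes in 11 of 21 (0.78), glycolysis genes in 11 of 19 (0.81), noncoding RNAs in 5 of 8 (1.57), oxidative stress genes in 10 of 21 with 3 lower, ion pumps in 8 of 18 with 1 lower and vomeronasal signalling genes in 7 of 14. Integrated stress response genes split 4 and 4 of 13, import genes 3 and 3 of 29, mitochondrial ribosome genes 3 and 1 of 77, biogenesis genes 1 and 0 of 10, endothelial genes 1 and 2 of 18 and gland products 2 and 2 of 9. Meg3 rose from 147 and 93.3 to 738 and 920 (2.79). The summed sustentacular markers were 122 and 50.9 CPM in kept and 600 and 645 in lost cells.

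The inflammatory and heat shock differences were also called in single-class C1q cells, where 2.08% and 1.45% of genes were called higher and lower. Nlrp3 had 122 and 119 CPM in kept and 24.1 and 22.4 in lost cells (-2.36 ± 0.26), with UMIs in 211 and 211 kept and 10 and 8 lost cells. Il1b had 3440 and 3015 against 1290 and 1180 (-1.38), Ccl3 2212 and 2112 against 680 and 861 (-1.49), and Gdf15, a stress-induced cytokine, 193 and 177 against 43.4 and 87.1 (-1.58). Of 17 immediate early genes 7 were lower and none higher (-0.45), with Dusp1, a phosphatase of MAP kinases, at 1648 and 1601 against 825 and 881 (-0.93), Junb at -0.82, Klf2 at -0.75 and Fos at -0.72. Of 13 heat shock genes 5 were lower, with Hspa1a at 1951 and 2241 against 798 and 1100 (-1.15) and Hsp90aa1 at -1.02, and 1 was higher, the small heat shock protein Hspb1 (1.53). The survival factor Mcl1 (-1.13) and the stress regulator Atf4 (-0.85) were lower, among 2 of 18 apoptosis genes and 3 of 13 integrated stress response genes with 1 higher. In the macrophage state list 11 of 24 were lower and 2 higher, Cbr2 (195 and 283 against 737 and 483, 1.36) and the haemoglobin scavenger receptor Cd163 (30.1 and 31.7 against 65.9 and 67.2, 1.11). Cd163 was not called over all C1q cells (-0.03).

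Removing every cell with a Cyp2a5 or Fezf2 UMI left these calls in place in C1q cells, where 770 and 699 cells were kept and 259 and 235 lost. Nlrp3 (-2.27), Il1b (-1.29), Ccl3 (-1.39), Osm (-1.60), Dusp1 (-0.91), Hspa1a (-1.14, adjusted p = 9.8e-07 by edgeR's quasi-likelihood test), Cbr2 (1.45) and Cd163 (1.34) were called, as were 9 of 17 immediate early genes lower, and 7 of 13 heat shock genes lower with 2 higher. Meg3, at 2.77 in single-class cells, stood at 0.98 (adjusted p = 0.42), and Rian, which was 2.70 higher over all C1q cells, stood at -0.74. Of the macrophage markers that do not define the class, the growth factor receptor Csf1r had 662 and 716 CPM in kept and 659 and 829 in lost single-class cells (0.11, adjusted p = 0.82 by edgeR's quasi-likelihood test) and Adgre1 268 and 288 against 198 and 321 (-0.13, 0.84).

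Epithelial transcripts were also higher in the lost single-class C1q cells, in 17 of 20 genes of the list (1.83). Elf3, an epithelial transcription factor, had 28.7 and 22.3 CPM in kept and 143 and 69.7 in lost cells (2.12), the cornified-envelope gene Sprr1a 54.1 and 23.7 against 280 and 122 (2.42), the water channel Aqp3 9.84 and 11.7 against 54.7 and 47.3 (2.25) and the laminin subunit Lamb3 1.74 and 2.29 against 12.9 and 9.95. Elf3 UMIs lay in 28 and 14 lost cells and 33 and 31 kept cells. Without any Cyp2a5 or Fezf2 UMI, 14 of 20 were called, Elf3 at 2.27 and Sprr1a at 2.49. The lost single-class C1q cells had a median of 918 nuclear UMIs against 4663 in kept cells, and the median over all barcodes was 5036 and 5261 UMIs, so the lost cells were shallow in both comparisons. Basal-cell markers summed to 126 and 88.3 CPM in these lost cells against 25.2 and 33.6 in kept cells, and gland markers to 5120 and 3344 against 6379 and 6978. The part of RNA from other cells in these levels was not tested.

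The other lists in single-class C1q cells are read against 2.08% and 1.45% of all genes called higher and lower. Called were 7 of 16 neutrophil genes lower (median -0.84), 6 of 20 neuronal genes higher (1.34), 1 of 9 gland genes higher with 3 lower, 3 of 13 vomeronasal signalling genes higher, 3 glycolysis genes higher of 18, 2 of 20 oxidative stress genes higher and 1 lower, 1 noncoding RNA higher of 6, 2 of 17 ion pumps higher and 1 endothelial gene higher of 12. None of the cytosolic ribosomal proteins was called, with Rps9 at -0.61 over all C1q cells and -0.19 in single-class cells.

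Lost endothelial-marker cells (Pecam1 and Cdh5) had lower endothelial and ribosomal transcripts and higher epithelial and neuronal ones, beside 11.5% and 7.26% of genes called higher and lower. Vcam1, a leukocyte adhesion molecule, had 522 and 560 CPM in kept and 118 and 199 in lost cells (-1.76 ± 0.21), the venous selectin Selp 293 and 358 against 114 and 124 (-1.45), and Klf2, induced by flow, 2854 and 2866 against 1208 and 1412 (-1.12, adjusted p = 0.00011 by edgeR's quasi-likelihood test). Endothelial subtype genes were lower in 15 of 20 and higher in 1, Hey1, an arterial Notch target (13.1 and 11.3 against 74.7 and 76.1, 2.63). Rplp0 had 5698 and 5020 against 3271 and 2776 (-0.82). The interferon-induced Ifitm1 (50.6 and 64.8 against 739 and 628, 3.56), Elf3 (3.22) and the keratin Krt8 (103 and 145 against 1151 and 785, 2.96) were higher. Ptgs2, the inducible prostaglandin synthase, had 304 and 419 against 69.2 and 113 (-1.98).

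Sustentacular-marker cells were more common and fibroblast-marker cells less common among the lost cells of this class. The Cyp2a5 and Fezf2 definition was met by 9.29% of lost and 1.28% of kept cells, with 40.6% and 2.93% of their UMIs, and the fibroblast definition by 1.64% and 8.13%. The apolipoprotein Apod and collagen Col1a1 had log2 fold changes of -3.59 and -2.498 and stood at 1.99 and 1.98 in single-class cells. In the whole class epithelial genes were 11 higher and 1 lower of 20 (1.75), neuronal genes 16 higher of 21 (2.04), vomeronasal signalling 7 higher of 14, glycolysis 10 higher of 19, oxidative stress 9 and 1 of 21, ion pumps 8 and 2 of 17, noncoding RNAs 5 and 1 of 8, immediate early genes 2 and 7 of 17, heat shock 1 and 5 of 13, integrated stress response 3 higher, apoptosis 2 and 2, macrophage 3 and 3 of 21, neutrophil 2 and 5, gland 2 higher, mitochondrial ribosome 2 and 1, import 2 and 1 and biogenesis none.

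In single-class endothelial-marker cells 127 genes were higher (1.08%) and 12 lower (0.102%). Ptgs2 had 285 and 305 CPM in kept and 107 and 130 in lost cells (-1.31 ± 0.19, adjusted p = 0.0049), Rplp0 5664 and 5056 against 3642 and 3471 (-0.59), and the chemokine Cxcl1 98.7 and 118 against 46.7 and 20.05 (-1.71). Gja4, a gap junction protein of arteries, rose from 52.3 and 50.5 to 96.1 and 138 (1.20) and Hey1 from 7.55 and 7.29 to 30.2 and 27.6 (1.95), the 2 endothelial subtype genes called. Epithelial genes were higher in 11 of 19 (2.59), with Krt8 at 35.1 and 75.3 against 425 and 296 (2.70). Ifitm1 had 19.4 and 16.04 against 247 and 328 (4.02), but 44 of its 90 UMIs and 95 of its 131 UMIs in lost cells lay in 1 cell each. Reg3g (3.79) and Igfbp5 (3.33) likewise had 272 of 297 and 114 of 152 UMIs in 1 lost cell of library 1 and of library 2.

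Without any Cyp2a5 or Fezf2 UMI, 271 and 272 kept and 67 and 63 lost endothelial-marker cells gave 42 genes higher and 13 lower (0.37% and 0.114%). Ptgs2 (-1.38), Rplp0 (-0.58), Gja4 (1.56), Vcam1 (-1.12), Cxcl1 (-1.81) and Ifitm1 (2.24) were called, and Jund, an immediate early gene, was lower (-0.63). Elf3 (1.82, adjusted p = 0.19), Hey1 (1.33, 0.48), Krt8 (0.69, 0.67) and Klf2 (-0.39, 0.43, edgeR's quasi-likelihood test) were not called. In single-class cells, 1 glycolysis, 1 noncoding RNA, 1 ion pump, 1 vomeronasal signalling, 1 neutrophil, 2 oxidative stress, 2 macrophage and 2 gland genes were higher, 1 immediate early and 1 import gene lower, and none of the heat shock, integrated stress response, apoptosis or neuronal genes was called.

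In the neutrophil-marker class (S100a8 and S100a9), 84 lost cells were compared with 569 kept ones, with 0.58% and 0.156% of genes called higher and lower. Odc1, ornithine decarboxylase, had 371 and 400 CPM in kept and 112 and 144 in lost cells (-1.56 ± 0.28, adjusted p = 0.023 by edgeR's quasi-likelihood test), the G-protein regulator Rgs1 799 and 986 against 404 and 241 (-1.43), and the interferon-induced Samd9l 354 and 346 against 101 and 120 (-1.63). The chemokine Cxcl2 had 15195 and 16725 against 7412 and 10096 (-0.83), the ferritin chain Fth1 23705 and 23096 against 12604 and 16161 (-0.67), the granule proteoglycan Srgn 10990 and 10436 against 6649 and 6787 (-0.64) and Il1b 19980 and 18889 against 13568 and 11973 (-0.57). These 4 were the neutrophil maturation genes called, 4 of 23 lower and none higher (median -0.67, against -0.08 over all genes). All lost values lay below all kept values in these genes. The calls depended on the setting: DESeq2 called 31 genes higher and 0 lower (302 at an unadjusted p below 0.05), edgeR called 0 in either direction without called doublets (525) and 2 higher and 0 lower between the quartiles of depth (225). In single-class cells Fth1 (-0.50, adjusted p = 0.064), Srgn (-0.44, 0.24) and Il1b (-0.44, 0.17) were not called by edgeR.

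For some genes higher in the lost neutrophil-marker cells, few cells held many of the UMIs. Ckb, creatine kinase, had 127 and 133 CPM in kept and 370 and 1011 in lost cells (2.43), the neuronal adhesion molecule Ncam1 23.6 and 12.4 against 213 and 180 (3.43) and Stmn2 12.9 and 27.2 against 89.7 and 554 (4.02), among 5 of 14 neuronal genes higher (2.11). In single-class cells Ncam1 UMIs lay in 4 and 1 lost cells and Stmn2 UMIs in 2 and 3. Selenom, a selenoprotein, had 240 and 252 against 662 and 746 (1.55), and in single-class cells 20 of its 56 and 20 of its 31 UMIs in lost cells lay in 1 cell each. Selenom UMIs were found in 15 of 42 and 10 of 37 lost and 78 of 292 and 79 of 267 kept single-class cells. The spread of Ckb over cells was not counted. Of the other lists, 1 glycolysis gene of 17, 1 noncoding RNA of 6 and 1 epithelial gene were higher, 1 immediate early gene and 2 of 18 macrophage genes were lower, and none was called among 77 oxidative phosphorylation, 64 mitochondrial ribosome and 81 cytosolic ribosome genes or in the remaining lists.

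Single-class neutrophil-marker cells gave 52 genes higher (0.795%) and 38 lower (0.581%). Odc1 (365 and 403 against 129 and 152, -1.44), Rgs1 (-1.19), Samd9l (-1.42) and Cxcl2 (-0.72) were lower there and also without any Cyp2a5 or Fezf2 UMI (0.932% and 0.695% of genes higher and lower, with values of -1.42, -1.23, -1.45 and -0.77), and Hsp90ab1 (0.95), Rpl3 (1.00) and Selenom (1.40) were higher. In the neutrophil maturation list 5 genes were lower (-0.48, against -0.18 over all genes): Cxcl2, Lcn2 and the granule genes Camp, Ngp and Chil3. Camp and Ngp had 1598 and 1381 UMIs in kept cells of library 2, a single UMI each in kept cells of library 1 and none in lost cells, and Chil3 had its 124 UMIs in kept cells of library 2, so these 3 calls rest on 1 sum. Lcn2 had 446 and 1723 against 491 and 372 CPM and did not separate in library 1.

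Levels over 5 bands of the mitochondrial share showed whether a difference changed at the limit or across the range. In single-class Omp cells Meg3 stood at 16.8 and 6.57 UMIs per 1000000 nuclear UMIs in cells of at most 2.5%, 41.2 and 41.2 from 2.5% to 5%, 182 and 196 up to 7.5%, 290 and 761 up to 10%, and 397 and 971 over 10%. The level rose from band to band in both libraries, with 22 and 25 cells over 10%. Some of these single-class cells hold Cyp2a5 or Fezf2 UMIs. Without such cells Meg3 was not called between lost and kept cells (2.11, adjusted p = 0.52 by edgeR's quasi-likelihood test). The bands were not computed without them. In single-class C1q cells Il1b went from 3877 and 3429 to 2603 and 2507, 1461 and 1312, and 1136 and 1073, and was higher again over 10% (2111 and 1683). Nlrp3 went from 129 and 134 to 33.8 and 19.7 between 5% and 7.5% and stood at 98.0 and 60.8 over 10%.

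Other genes fell with a rising share. Il33 in single-class Krt5 cells stood at 170 and 160 from 2.5% to 5% (787 and 746 cells) and at 84.3 and 77.1 from 5% to 7.5% (290 and 292 cells). The lowest band held 8 and 3 cells, with 25 and 20 Il33 UMIs of 80264 and 25570 nuclear UMIs. That is a higher level than in the next band, in few cells. Single kept cells held up to 26 and 20 Il33 UMIs in the 2 libraries, so a fall below the limit cannot be read from these bands. Wfdc18 in Cyp2a5 and Fezf2 cells without Omp stood at 167456 and 203946 in cells of at most 2.5% (21 and 20 cells), at 39638 and 35921 from 2.5% to 5%, and between 5405 and 7299 in each band above 5%. S100a5 in single-class Omp cells was high in a single band, at 99.8 and 103 between 5% and 7.5% against 16.5 and 4.52 in the next, and this is the gene whose UMIs lay mostly in 1 cell of each library.

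**Figure D5:**
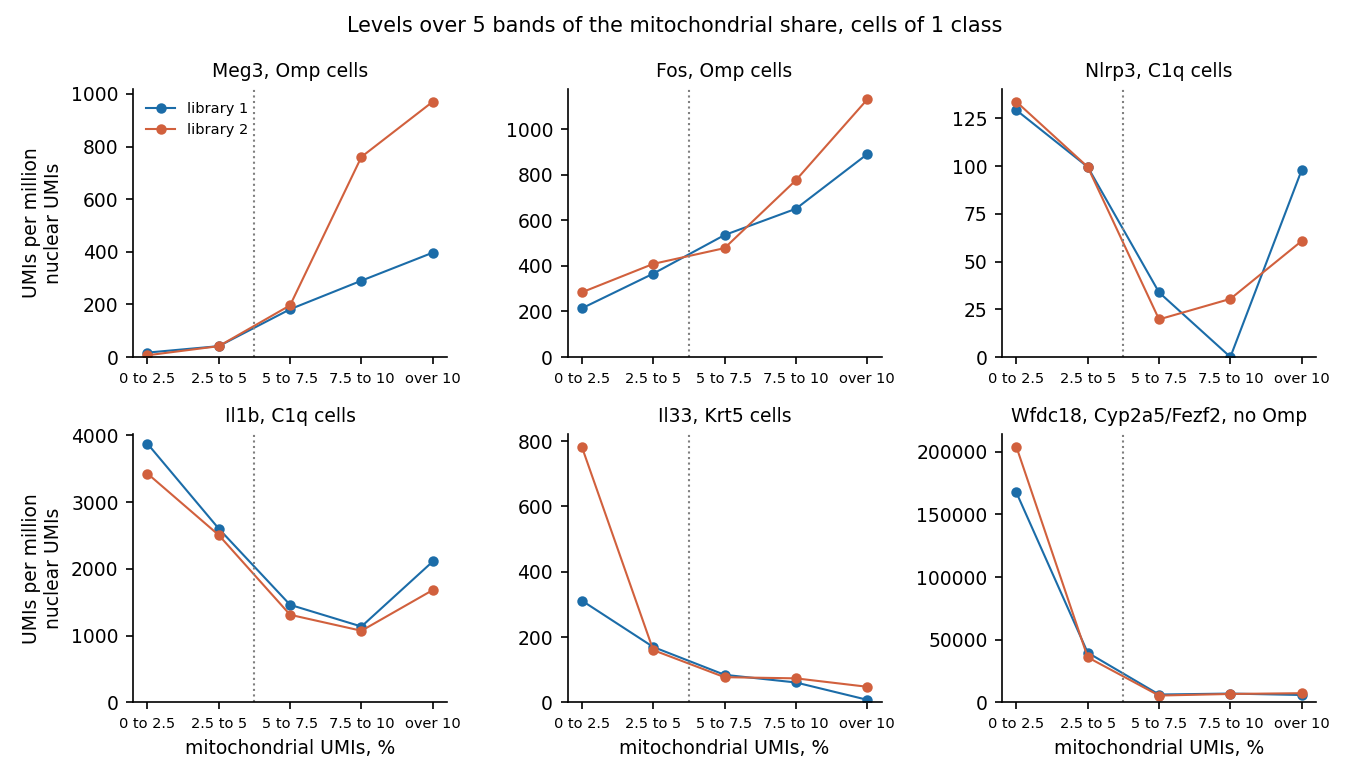
Levels of Meg3 and Fos in single-class Omp cells, Nlrp3 and Il1b in single-class C1q cells, Il33 in single-class Krt5 cells and Wfdc18 in Cyp2a5 and Fezf2 cells without Omp, in UMIs per 1000000 nuclear UMIs, over 5 bands of the mitochondrial share in percent, by library, with the 5% limit as a dotted line. Meg3 rises over all bands to 397 and 971 (in 22 and 25 cells), while Nlrp3 and Il1b fall and are higher again over 10%.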

How the data were processed

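The deposited matrix holds whole-number UMI counts per gene and barcode, with the library given by the number after the barcode. Per the labels and the study's methods, the authors demultiplexed reads with bcl2fastq, counted them with Cell Ranger 4 against mm10, merged both libraries with cellranger aggr (with a depth setting that was not stated), and filtered and clustered in Seurat 3.2.3. No cell annotation was used here. Totals per library are in the report and set the precision of each value.

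Shares were computed from the matrix in Python 3.11.15, with exact binomial 95% intervals. The 13 mt- genes were left out of all sums. UMIs were summed by library and band, genes under 10 UMIs over the 4 sums were dropped, and edgeR 4.0.16 in R 4.3.3 (TMM, quasi-likelihood test, 0.05 after Benjamini-Hochberg) compared lost with kept without a block. Library is shared by construction: deviations of lost and kept sums correlated at 0.255, 0.183, 0.137, 0.188, 0.159 and -0.040 over all, Omp, Krt5, C1q, endothelial-marker and neutrophil-marker cells. DESeq2 1.42.0 and the other alternatives are given at the end. Scrublet (scanpy 1.11.5) called 2.36% and 1.91% of cells doublets, which were kept in the main result. The test was checked on simulated counts.

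Genes were named by rule: per comparison the 6 largest rises and 6 largest falls among called genes of at least 200 UMIs that moved alike in both libraries, without class-defining genes, receptor genes and unnamed models, and up to 4 called members per list. Gene positions are from GENCODE on mm10. The bands, classes, gene lists and named genes were chosen with earlier results of these data known. All 2 libraries were used, and 0 columns were set aside. Some classes and their marker lists entered the counting of cells by class but are not reported here.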

Additional observations from a re-analysis of the deposited data

Results flagged for a closer look

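The change between lost and kept cells differed between classes for many genes. Each class was set against the mean of the other 4 by an interaction term in edgeR's quasi-likelihood test over 6767 genes tested in all 5 classes. The change differed for 1492 genes in Omp cells (22.0%), 189 in Krt5 cells (2.79%), 487 in C1q cells (7.2%), 721 in Pecam1 and Cdh5 cells (10.7%) and 139 in S100a8 and S100a9 cells (2.05%). In single-class cells the numbers were 219, 15, 7, 47 and 37 of 5892. The Cyp2a5 and Fezf2 definition was met by 69.7% of lost and 27.6% of kept Omp cells, 15.0% and 2.91% of Krt5 cells, 8.85% and 2.36% of C1q cells, 9.29% and 1.28% of Pecam1 and Cdh5 cells, and 1 of 84 and 0 of 569 S100a8 and S100a9 cells. Its part in the counts was not tested.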

How the results depend on the processing

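All settings were compared over 2 libraries. Genes called over all, Omp, Krt5, C1q, endothelial-marker and neutrophil-marker cells numbered 10109, 5613, 1826, 4450, 3445 and 245 with the library as a replicate block, which changed no call among the named genes in all, Omp or Krt5 cells and added calls for 3 named genes in C1q cells (Igfbp7, Col17a1 and Aqp3), for Gja4 in endothelial-marker cells and for 9 named genes in neutrophil-marker cells. Thinned to 1000 nuclear UMIs they numbered 2976, 780, 37, 438, 17 and 26. Bands of 2.5% to 5% and 5% to 7.5% gave 1829 in Omp, 1928 in C1q and 1016 in endothelial-marker cells. DESeq2 gave 1882 in C1q, 1237 in endothelial-marker and 31 in neutrophil-marker cells. No filter on low counts gave 750 in Krt5 and 443 in neutrophil-marker cells, and filterByExpr 166 in the latter. Leaving out called doublets gave 0 in neutrophil-marker cells by edgeR (525 at an unadjusted p below 0.05), and leaving out cells of more than 1 of the 5 classes gave 1473 in C1q, 401 in endothelial-marker and 29 in neutrophil-marker cells.

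Other settings were chosen after seeing the data. Without cells of another class the counts in Omp, Krt5, C1q, endothelial-marker and neutrophil-marker cells were 129, 49, 432, 139 and 90, and the genes whose change differed between classes numbered 219, 15, 7, 47 and 37. Without any Cyp2a5 or Fezf2 UMI the counts were 13, 40, 335, 55 and 103. Between the quartiles of nuclear UMIs they were 794, 105, 301, 26 and 2. These settings also leave fewer cells and UMIs, and the cause was not tested.

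The percent of cells lost moved with at least 500 genes to 41.4 over all, 18.5 in C1q, 20.4 in endothelial-marker and 11.6 in neutrophil-marker cells. It moved with cells of another class left out to 34.4 in Omp, 32.6 in Krt5, 25.6 in C1q and 12.4 in neutrophil-marker cells, and with classes set on 2000 thinned nuclear UMIs to 52.6, 39.4, 14.9 and 20. Leaving out doublets gave 20.3 in endothelial-marker and 12.1 in neutrophil-marker cells, and leaving out cells of more than 1 of the 5 classes 19.7 in the former. Leaving out 1 library gave 43.1 to 43.7 over all, 53.8 to 57.9 in Omp, 35.2 to 36.3 in Krt5, 26.2 to 28.1 in C1q, 20.5 to 20.9 in endothelial-marker and 12.8 to 12.9 in neutrophil-marker cells. With 1 library left, counts of called genes have no spread to test against and were not computed.

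Log2 changes that turned sign in Omp cells were Lcn4 (0.084) without cells of another class, Lcn2 (-1.12), Lcn3 (0.71), Lcn4 (0.46) and Pip (1.09) without Cyp2a5 and Fezf2, Pip (0.32) when thinned, and Wfdc18 (1.15), Lcn3 (0.42) and Ltf (2.29) between the quartiles of depth. In Krt5 cells they were Mfap4 (0.62), Sfrp2 (0.62) and Krt6a (-1.42) without cells of another class, 0.37, 0.22 and -1.30 without Cyp2a5 and Fezf2, Krt6a (-0.28) when thinned, Krt75 (0.52) and Spink5 (0.59) between the quartiles, and, leaving out 1 library, Spink5 (-3.24 to 1.02), Krt6a (-1.18 to 1.14) and Igfbp5 (-0.078 to 0.76). In C1q cells Rian turned to -0.74 without Cyp2a5 and Fezf2, and Cd163 to 1.11 without cells of another class, 1.34 without Cyp2a5 and Fezf2, 0.45 without cells of more than 1 class, 0.97 when thinned, 0.81 between the quartiles and -0.20 to 0.12 leaving out 1 library. In endothelial-marker cells Col1a1 (1.98 and 1.74) and Apod (1.99 and 2.18) turned without cells of another class and without Cyp2a5 and Fezf2, and Igfbp5 (-0.28) between the quartiles. In neutrophil-marker cells Cxcl1 (0.29), Ncam1 (-0.34), Tuba1a (-0.33), H2-Ab1 (0.13) and Selenom (-0.19) turned between the quartiles, H2-Ab1 (0.20) without cells of more than 1 class, Lcn2 (0.18) in the narrower bands, and, leaving out 1 library, Lcn2 (-2.48 to 0.019), Camp (-9.36 to 0.80), Ngp (-9.15 to 0.80), Chil3 (-5.68 to 2.38) and H2-Ab1 (-1.96 to 0.70). Over all cells Wfdc18 (0.19) and Dcpp3 (0.024) turned between the quartiles. The cause was not tested.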
